A study of Mus musculus with 39 samples.

Results

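The inferior colliculus, the main auditory station of the midbrain, was compared between 5 CBA/CaJ mice with severe presbycusis (severe hearing loss with age) and 8 young adult CBA/CaJ controls with good hearing, 13 of the 39 arrays of the study. Both groups were chosen by the hearing status in the labels, and the comparison covered all 22626 probe sets of the Affymetrix MOE430A array, with 1 array of total RNA per mouse. The severe group held 4 females and 1 male and the young group 4 females and 4 males. Another 17 middle-aged mice with good hearing and 9 with mild presbycusis, of the same inbred strain, entered the same linear model. Per the labels all mice were untreated, aged normally and were raised together in a quiet room. The labels do not give the ages, and the severe mice differ from the controls in age class as well as in hearing, so that age and hearing loss cannot be told apart. CBA/CaJ mice keep their hearing for much of life, and 1 inbred strain from 1 colony is the model throughout.

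Microglia are the resident macrophages of the brain. On activation they raise receptors such as Clec7a, lysosomal proteases and lipid-handling genes, and they are the main source of C1q, the protein that starts the classical complement cascade. Astrocytes, the support cells of synapses, become reactive by raising the filament protein Gfap and the protease inhibitor Serpina3n. Interferons, the antiviral cytokines, induce both antiviral effectors and the MHC class I pathway, which displays peptides on the cell surface. Arrays of whole tissue measure the sum over cell types, so that fewer cells of a type and less RNA per cell cannot be told apart.

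Values are log2(intensity + 16), a scale that understates the change of dim genes, and a difference is the severe minus the young mean from limma with sex as a covariate, with its standard error (SE). A probe set was called at a Benjamini-Hochberg adjusted p under 0.05 over all probe sets. The number of arrays limits the precision. Array medians of intensity ran from 150 to 203 in severe and from 164 to 217 in young mice, and pairwise correlations of the 13 arrays ran from 0.929 to 0.967. The log2 ratio of the 3′ to the 5′ probe set of actin, a sign of RNA quality, was 2.01 to 3.01 in severe and 1.82 to 2.66 in young mice. The same ratio of Gapdh was 1.47 to 2.95 in severe and 2.13 to 3.06 in young mice. In it severe replicates 1, 4 and 5 (2.04, 1.47 and 2.07) lay below every young array. The summed level of 11 midbrain transcription factors was 11.84 to 12.12 in severe and 11.93 to 12.43 in young mice, against 6.68 to 8.19 and 6.1 to 7.99 for 3 factors of the forebrain. Young replicate 2 carried cerebellar signal, with a summed level of 15.45 over 11 cerebellar genes where the other 12 arrays reached at most 13.44. Young replicate 3 (13.11) and severe replicate 1 (11.66) stood above the other arrays (9.07 to 10.06) in 6 genes of the choroid plexus and ependyma. The part of these signals in the results was not tested beyond the counts without the array, which were 103, 111 and 93 called probe sets against 120 with all arrays.

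Severe replicate 4, the only male with severe presbycusis, stood apart from the other 4 severe mice in many of the genes described below. In others, such as B2m, Ifit3 and C1qa, it lay among the severe females. In all 120 probe sets were called (0.530% of those tested), 114 of them higher (0.504%) and 6 lower (0.0265%). Of the 114 higher probe sets, severe replicate 4 was the lowest severe array in 77, and it lay above every young array in 69, against 105 to 108 for each of the other severe mice. Its median deviation from the young mean was 0.64, where the 4 females had 1.13 to 1.24. Without this mouse 133 probe sets were called, and with females only in the fit 247 (1.09%), of which 209 were higher (0.924%) and 38 lower (0.168%). The sex of severe replicate 4, this mouse itself and its single array cannot be told apart.

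**Figure D1:**
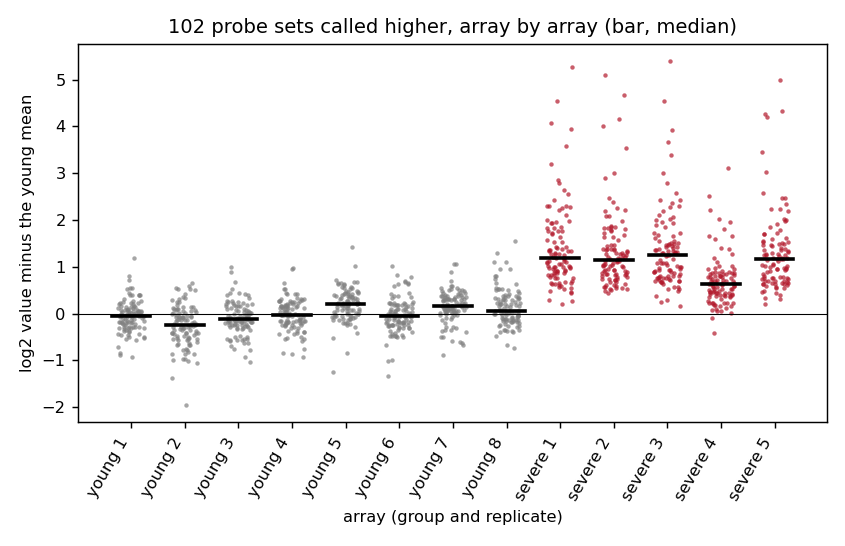
Each point is 1 of the 102 probe sets called higher that carry a single gene symbol, plotted for each of the 8 young (grey) and 5 severe arrays (red) as the log2 value minus the young mean, with a bar at the median. The medians of the severe females lie between 1.15 and 1.26, that of severe replicate 4 at 0.63, and those of the young arrays between -0.24 and 0.20.

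Far more transcripts were called higher than lower. The 114 higher probe sets belonged to 89 named genes and the 6 lower ones to 6 genes. Of the 89 genes, 43 were members of the microglial, macrophage, leukocyte, Fc receptor, complement, antigen presentation, lysosomal or reactive astrocyte lists described below. Over all 58 lists 51 of the 89 were members, where 749 of the 12393 named genes were listed. The lists were chosen with earlier results of these data known, so these counts are a description and not a test. Of the higher probe sets 60 rose at least 2-fold and 10 at least 4-fold, while the median difference over all probe sets was -0.03. All 5 severe arrays lay above every young array in 56 of the 114, and all 5 lay below in 3 of the 6 lower ones; over all probe sets this held for 72 (0.318%) and 18 (0.0796%). In 112 of the 114 every severe mouse was above the young mean. An unadjusted p under 0.05 was reached by 1733 probe sets, with 1131 given by chance. With only the severe and young arrays in the fit 43 probe sets were called, 42 of them higher. Of the 108 called probe sets with a single symbol, 72 lost their call in this fit and 36 kept it; the losses among named genes are given with each group.

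**Figure D2:**
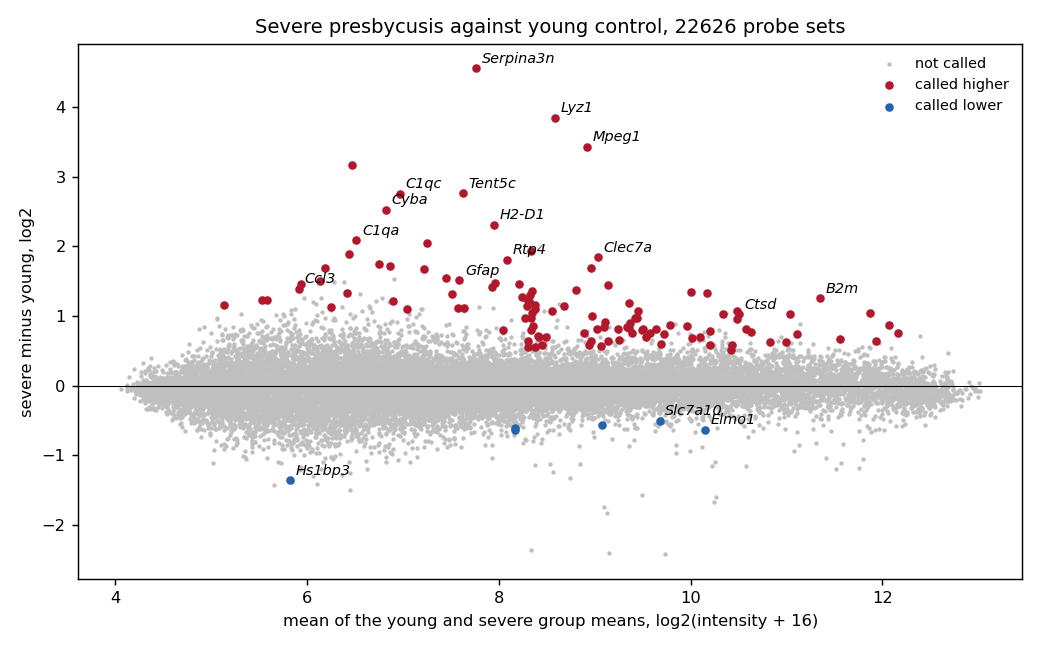
The severe minus young difference (log2, vertical axis) of each of 22626 probe sets is plotted against the mean of both group means (log2(intensity + 16), horizontal axis), with called probe sets in red (higher) and blue (lower). The called points lie almost all above 0, led by Serpina3n at 4.56, Lyz1 at 3.84 and Mpeg1 at 3.43, and the lowest called point is Hs1bp3 at -1.36.

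Serpina3n, a secreted inhibitor of serine proteases and a marker of reactive astrocytes, showed the largest rise of all. Its probe set, on chromosome 12, read 9.56, 10.60, 10.89, 8.61 and 10.49, whereas the 8 young arrays lay at 5.26 to 5.85 with a median of 5.49. Every severe mouse was above every young mouse, and the male was the lowest of the 5. The difference was 4.56 (SE 0.57, adjusted p 2.85e-06), a 23.5-fold rise on this scale from a mean intensity of 29.5 to 1192. Since the young level was near the bottom of the scale, the fold depends on the pseudocount, with a log2 difference of 3.57 at a pseudocount of 64 and of 5.13 at 1. Among females alone it was 4.81.

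Mpeg1, on chromosome 19, encodes perforin-2, a pore-forming protein with which macrophages kill engulfed bacteria. It had the smallest p of all probe sets, with values of 11.09, 11.30, 11.05, 8.79 and 11.34 against young values of 5.88 to 7.60 with a median of 7.22. The severe females sat within a narrow band, and severe replicate 4 was far below them and still above every young array. The difference of 3.43 (SE 0.31, adjusted p 2.27e-09) was 3.77 among females. Clec7a (dectin-1, chromosome 6), a receptor for fungal glucans that activated microglia raise, behaved in the same way. It read 10.30, 10.31, 10.48, 8.76 and 10.25, with the young arrays at 7.66 to 8.43 with a median of 8.07. The groups did not overlap, and the rise was 1.84 (SE 0.18, adjusted p 1.2e-08).

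All 3 chains of C1q were higher in severe mice. C1qc read 8.37, 8.58, 8.59, 8.09 and 8.15, against young values of 4.80 to 7.13 with a median of 5.48, and the lowest severe array was above the highest young one. It differed by 2.76 (SE 0.31, adjusted p 2.7e-07). C1qa read 9.00, 7.27, 7.45, 7.64 and 6.72, with young arrays at 5.21 to 5.73 with a median of 5.36, again without overlap. Its rise was 2.08 (SE 0.32, adjusted p 6.75e-05). C1qb rose on each of its 3 probe sets, by 1.44 (SE 0.24) on the brightest and by 1.93 and 1.31 on the others, the last of which lost its call without severe replicate 1 or 2 (adjusted p 0.056 and 0.0717). C3ar1, the receptor of the complement fragment C3a, rose by 1.42 (SE 0.26) on 1 probe set and by 0.71 (SE 0.16) on a brighter one, whose call was lost without severe replicate 1 or 5 or young replicate 2 or 3 (adjusted p up to 0.133). Fitted with only these 2 groups, the last C1qb probe set and both of C3ar1 lost their calls (adjusted p 0.135 to 0.356), as did the brighter C3ar1 probe set among females (0.0514). In all 4 of 12 measured complement genes were called and the median of the list was 0.19, against -0.02 over the brightest probe set of all 12393 named genes.

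Among genes of activated microglia, 9 of 18 measured were called higher and none lower, with a list median of 0.98. Tyrobp, the adaptor through which several microglial receptors signal, read 9.84, 9.39, 9.16, 8.09 and 8.86, against 6.76 to 8.21 with a median of 7.65 in young mice. The 4 females were above every young array and the male was inside the young range. The rise was 1.36 (SE 0.20, adjusted p 5.25e-05). Cd68, a lysosomal glycoprotein of phagocytes, rose by 1.30 (SE 0.18), and Gpnmb, a transmembrane glycoprotein of lipid-laden phagocytes, by 1.67 (SE 0.31). Cst7, the inhibitor of lysosomal proteases called cystatin F, read 7.53, 6.91, 7.21, 4.70 and 7.45, against 4.57 to 5.67 with a median of 5.12. Here the male lay at the level of the young mice and the 4 females well above it, and the difference over both sexes was 1.46 (SE 0.30, adjusted p 0.00563). The tetraspanin Cd9 (0.96, SE 0.21) and lipoprotein lipase Lpl (1.03, SE 0.25) also rose. The call of Cd9 was lost without severe replicate 2 or 3 (adjusted p up to 0.0605), and that of Lpl without severe replicate 1, 2, 3 or 5 or young replicate 1, 2, 4 or 6 (up to 0.170). Without the other groups in the fit Tyrobp, Cst7, Cd9 and Lpl lost their calls (adjusted p 0.0568, 0.190, 0.102 and 0.201), and Lpl also with quantile normalization, median centring or no trend (up to 0.0981). The galectin Lgals3 differed by 1.00 (SE 0.26, adjusted p 0.0627) and the integrin Itgax by 0.72 (SE 0.20, adjusted p 0.129), and neither passed. Apoe, the main lipid carrier of the brain, differed by 0.49 (SE 0.22, adjusted p 0.601). Trem2, the lipid receptor that pairs with Tyrobp, had a difference of -0.28 on a dim probe set (SE 0.42, adjusted p 0.923); it was named after its value was seen.

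Of 12 genes of resting microglia 1 was called, the fractalkine receptor Cx3cr1, through which neurons signal to microglia. It read 10.21, 10.11, 9.83, 9.67 and 9.86, with young arrays at 8.11 to 9.53 with a median of 9.18, so that the severe arrays were all above the young ones by a small margin. Its rise was 0.81 (SE 0.16, adjusted p 0.0044), and the call was lost among females (adjusted p 0.0689) and with only the 2 groups fitted (0.243). Its ligand Cx3cl1, made by neurons, differed by -0.32 (SE 0.10, adjusted p 0.231). The list had a median of 0.31 and a summed level of 12.59 to 13.19 in severe against 11.82 to 12.48 in young mice. Neither Csf1r, the receptor microglia need to survive (0.51, SE 0.15, adjusted p 0.132), nor the orphan receptor Gpr34 (0.84, SE 0.23, adjusted p 0.0983) passed. P2ry12 (0.31, SE 0.16) and Tmem119 (0.25, SE 0.16), both used to tell resident microglia from other macrophages and named here after their values were seen, had adjusted p of 0.67 and 0.785.

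Macrophage genes were called in 5 of 14 cases. The lysozyme Lyz1 read 11.86, 11.26, 11.13, 7.78 and 10.93, against 5.88 to 7.55 with a median of 6.44 in young mice, on a probe set whose suffix marks probes shared with other transcripts. The 4 severe females lay far above the young range, while the male was only just above the highest young array. The difference was 3.84 (SE 0.52, adjusted p 8.7e-06), 3.16 on another such probe set, and -0.15 (SE 0.23) on the plain one. Lyz2, the lysozyme of macrophages, rose by 1.46 (SE 0.34) and lost its call without severe replicate 1 or 2 or young replicate 2 or 3 (adjusted p up to 0.126). Adgre1, the macrophage antigen F4/80, rose by 0.99 (SE 0.13) and the lipopolysaccharide co-receptor Cd14 by 0.97 (SE 0.18), both without overlap of the groups. The calls of Lyz2 and Cd14 were lost when only the 2 groups were fitted (adjusted p 0.0667 and 0.0624), and that of Lyz2 among females (0.0897). Among Fc receptor genes and their adaptors 2 of 12 were called, Fcgr3, a receptor for immune complexes (1.27, SE 0.17, adjusted p 6.74e-06), and Tyrobp.

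Of 19 leukocyte surface and signalling genes 8 were called higher, with a list median of 0.61. Ptprc, the pan-leukocyte phosphatase CD45, read 8.96, 8.59, 9.19, 7.83 and 9.05, and the young arrays lay at 6.55 to 7.51 with a median of 7.30. The severe arrays were all above them. The rise was 1.48 (SE 0.18, adjusted p 1.02e-06). Cyba, the membrane subunit of the NADPH oxidase that makes superoxide, read 8.47, 8.52, 7.88, 7.26 and 8.09, against 4.58 to 6.71 with a median of 5.41, and it also did not overlap. It rose by 2.52 (SE 0.47, adjusted p 0.0017). The other calls were the Toll-like receptor partner Ly86 (1.34, SE 0.19), the lysosomal membrane protein Laptm5 (1.69, SE 0.26, and 0.83 on its brightest probe set), the tetraspanin Cd53 (1.16, SE 0.16), the adhesion receptor Cd48 (1.10, SE 0.24), pleckstrin Plek (1.07, SE 0.21) and the integrin Itgb2 (0.97, SE 0.21). The call of Cd48 was lost without severe replicate 1, 2 or 5 or young replicate 3 (adjusted p up to 0.104), and that of Itgb2 without severe replicate 1 or 3 (up to 0.0564). Fitting only the 2 groups ended the calls of Cd48, Plek, Itgb2 and the brightest Laptm5 probe set (adjusted p 0.342, 0.190, 0.0824 and 0.211), and females alone those of Cd48, Itgb2 and that Laptm5 probe set (up to 0.0961). Cd52, a small antigen of leukocytes, read 8.11, 7.96, 7.65, 5.76 and 5.77, against 5.18 to 5.93 with a median of 5.53. It was high in 3 severe females, while the other female and the male were inside the young range, and it did not pass (1.48, SE 0.38, adjusted p 0.0573). The chemokine Ccl3, which recruits leukocytes, was the sole call among 19 chemokine and receptor genes, at 1.39 (SE 0.27, adjusted p 0.00311; 0.104 with only the 2 groups fitted).

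Markers of lymphocytes and neutrophils gave 1 call. Of 14 genes of T and NK cells 0 were called by limma, with a list median of -0.14 and a summed level of 11.61 to 12.07 in severe and 11.72 to 12.17 in young mice. Cd3e differed by 0.49 (SE 0.30, adjusted p 0.757) and Cd4 by -0.49 (SE 0.26, adjusted p 0.709). At an unadjusted p under 0.05 this list held 1 genes. Of 9 neutrophil genes 0 were called by limma and 2 reached an unadjusted p under 0.05, with S100a9 at 0.92 (SE 0.36, adjusted p 0.444). Among 14 genes of B and plasma cells the immunoglobulin gene Ighm differed by -0.24 (SE 0.13, adjusted p 0.705), and 1 was called, the poly(A) polymerase Tent5c, which stabilises transcripts of secreted proteins. It read 9.40, 9.75, 9.59, 6.95 and 9.64, against 4.86 to 7.61 with a median of 5.94. The 4 females were above every young array and the male was inside the young range. The rise was 2.77 (SE 0.53, adjusted p 0.00228), and the call was lost with only the 2 groups fitted (2.69, adjusted p 0.0756).

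Several lysosomal proteases rose. Of 10 cathepsins 5 were called, with a list median of 0.69 and a summed level of 14.03 to 14.45 in severe and 13.56 to 13.83 in young mice. Ctsd, the main aspartic protease of lysosomes, read 11.18, 11.13, 10.82, 10.88 and 11.21, whereas young mice lay at 9.72 to 10.37 with a median of 9.96. All 5 severe mice, the male among them, were above every young mouse. The difference was 1.02 (SE 0.15, adjusted p 2.61e-05), and it was 0.97 among females. The carboxypeptidase Ctsz rose by 1.15 (SE 0.20), the aminopeptidase Ctsh by 1.14 (SE 0.18), the granule protease activator Ctsc by 0.82 (SE 0.17) and Ctss, which processes the invariant chain of MHC class II, by 0.75 (SE 0.15, lost without severe replicate 2, adjusted p 0.0525). Of 28 lysosomal enzymes and membrane proteins 6 were called and the median was 0.21. Besides Cd68 and Laptm5 they were the membrane protein Lamp2 (0.96, SE 0.14, but 0.41 on its brightest probe set), progranulin Grn (0.88, SE 0.15), β-glucuronidase Gusb (0.56, SE 0.13) and the mannosidase Man2b1 (0.56, SE 0.13). The calls of Gusb and Man2b1 were lost without any of several single mice, Gusb without severe replicate 1, 2, 3 or 5 or young replicate 3 or 4 (adjusted p up to 0.116) and Man2b1 without severe replicate 2 or 4 or young replicate 2 or 3 (up to 0.138). When only the 2 groups were fitted Ctsc, Ctss, Gusb and Man2b1 lost their calls (adjusted p 0.146, 0.211, 0.421 and 0.243), and among females Man2b1 did (0.0695). The cholesterol exporter Abca1 rose by 0.81 (SE 0.11, adjusted p 1.76e-05), without overlap of the groups, as 1 of 2 called among 10 genes of lipid export.

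MHC class I genes were higher in the severe male as well as in the severe females. H2-D1, a class I heavy chain, read 9.07, 9.16, 9.56, 8.14 and 9.79, and the young arrays lay at 6.35 to 7.08 with a median of 6.77. Every severe mouse was above every young mouse, and the male was the lowest of the severe group. The rise was 2.31 (SE 0.23, adjusted p 1.2e-08) on this probe set, 1.72 and 1.69 on 2 others, and between -0.27 and 0.63 on 6 that were not called; class I genes are near-identical, and the suffix of the called probe sets marks probes shared with other transcripts. H2-K1 rose by 0.83 (SE 0.13) on its brightest probe set. B2m, the light chain common to all class I molecules, read 12.07, 11.55, 12.24, 12 and 11.98, against 10.16 to 11.40 with a median of 10.71. These groups did not overlap, and the male lay among the females. Its rise was 1.25 (SE 0.17, adjusted p 1.71e-05) and 1.04 (SE 0.18) on its brighter probe set. In all 3 of 5 class I genes were called, with a list median of 0.83 and a summed level of 12.63 to 13.03 against 11.30 to 12.30. The immunoproteasome subunit Psmb8, which cuts peptides for class I, rose by 1.33 (SE 0.27, adjusted p 0.00415), while Psmb9 did not pass (1.25, SE 0.32, adjusted p 0.0558), and 1 of 11 genes of this list was called. Of 9 MHC class II genes the α chain H2-Aa was called (1.04, SE 0.21, lost without severe replicate 1, adjusted p 0.0578). Its partner H2-Ab1 (1.17, SE 0.36, adjusted p 0.204) and the invariant chain Cd74 (0.43, SE 0.15, adjusted p 0.347) were not. A fit of only the 2 groups ended the calls of the brightest H2-K1 and B2m probe sets (adjusted p 0.0681 and 0.0862), Psmb8 (0.191) and H2-Aa (0.193), and array weights that of H2-Aa (0.105).

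Interferon-induced genes were called in 4 of 27 cases, with a list median of 0.29. Ifit3, an antiviral effector that binds foreign RNA complexes, read 10.29, 9.53, 9.66, 9.88 and 9.62, against 8.78 to 9.27 with a median of 8.84 in young mice. The severe arrays were all higher, and the male was the second highest of them. The rise was 0.90 (SE 0.13, adjusted p 1.71e-05). Rtp4, a receptor chaperone induced by interferon, was more uneven, at 9.80, 7.84, 9.67, 8.82 and 8.60 against 5.27 to 8.25 with a median of 7.52. Severe replicate 2, a female, fell inside the young range, and the difference was 1.80 (SE 0.35, adjusted p 0.00244), against -0.13 (SE 0.26) on a dimmer probe set. The GTPase Irgm1, which acts on vacuoles that hold microbes, rose by 0.64 (SE 0.14) and lost its call without severe replicate 3 or 4 (adjusted p up to 0.0605). Trim30a rose by 1.21 (SE 0.29) on a dim probe set and differed by 0.04 (SE 0.20) on its brightest; that call was lost without severe replicate 1, 2, 3 or 5 or young replicate 1, 2, 3 or 6 (adjusted p up to 0.125). In the fit of only the 2 groups Rtp4, Irgm1 and Trim30a lost their calls (adjusted p 0.167, 0.0905 and 0.0814); Irgm1 lost it also among females (0.0532), and Irgm1 and Trim30a with array weights (0.103 and 0.199). Not called were the protease Usp18 (0.86, SE 0.29, adjusted p 0.278), Oasl2 (0.92, SE 0.36) and the tethering protein Bst2 (0.82, SE 0.26), which was raised in severe replicates 1 and 3 alone.

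Promoters of the 89 genes called higher were searched for 4 motifs on both strands, in the 300 bases from 250 before to 50 after the transcription start (RefSeq, build GRCm38.p6). Of these genes 76 had a promoter in the table. The core of the interferon-stimulated response element (GAAA, any 2 bases, then GAAA) was present in 6 of them (7.89%), against 3.99% of 27025 genes with a promoter. The 6 genes were B2m, Ctss, Ifit3, Irgm1, Rsad2 and Trim30a. The 27025 are all genes of the promoter table, whether or not the array measured them. Rsad2, an antiviral enzyme outside the lists that was named after its value was seen, rose by 0.66 (SE 0.16) and lost its call without severe replicate 1, 2, 4 or 5 or young replicate 1, 3, 4, 5 or 8 (adjusted p up to 0.275), with quantile normalization, no trend or females only (up to 0.135) and with only the 2 groups fitted (0.421). GAGGAAGT, a site of the myeloid factor PU.1, was present in 5 (6.58%, against 3.69%), namely C1qc, Cd53, Ctsc, Ctss and Gusb. TTCNNNGAA, the gamma-activated sequence, was found in 4 (5.26%, against 9.55%), namely Ctsc, Gfap, Mgst1 and Psmb8. GTCACGTG, the core motif of lysosomal genes known as CLEAR, was found in 4 (5.26%, against 2.55%). These were Anln, Ctsd, S100a6 and Tmem47, of which only Ctsd was in the cathepsin or lysosomal lists. A match is a description of letters, not a site of binding. Shown are promoters of an antiviral effector, a GTPase and the class I light chain with the interferon motif in capitals, and then of a C1q chain and a cathepsin with the PU.1 motif in capitals. They lie at chr19:34583279-34583578 (plus strand) for Ifit3, chr11:48871371-48871670 (minus strand) for Irgm1 (with 2 matches that overlap), chr2:122147437-122147736 (plus strand) for B2m, chr4:136892865-136893164 (minus strand) for C1qc and chr3:95526536-95526835 (plus strand) for Ctss, each written 5′ to 3′ on the strand of its gene, so that a match to the opposite strand appears as the reverse complement.
Ifit3: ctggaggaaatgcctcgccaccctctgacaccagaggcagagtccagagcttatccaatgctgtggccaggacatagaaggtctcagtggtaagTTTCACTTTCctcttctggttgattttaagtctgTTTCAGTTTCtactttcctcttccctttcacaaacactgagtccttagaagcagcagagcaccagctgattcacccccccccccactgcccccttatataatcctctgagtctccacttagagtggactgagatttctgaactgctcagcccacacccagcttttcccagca
Irgm1: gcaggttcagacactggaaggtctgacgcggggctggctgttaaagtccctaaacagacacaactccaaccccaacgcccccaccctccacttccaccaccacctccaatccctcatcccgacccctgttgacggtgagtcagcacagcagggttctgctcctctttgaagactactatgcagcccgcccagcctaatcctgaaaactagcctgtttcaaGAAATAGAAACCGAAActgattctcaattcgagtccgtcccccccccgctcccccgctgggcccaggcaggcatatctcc
B2m: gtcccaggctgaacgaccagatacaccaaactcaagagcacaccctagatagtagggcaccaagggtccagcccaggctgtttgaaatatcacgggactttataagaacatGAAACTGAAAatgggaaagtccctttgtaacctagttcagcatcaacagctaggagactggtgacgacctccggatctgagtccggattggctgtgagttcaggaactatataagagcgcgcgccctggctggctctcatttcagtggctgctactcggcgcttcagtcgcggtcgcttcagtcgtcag
C1qc: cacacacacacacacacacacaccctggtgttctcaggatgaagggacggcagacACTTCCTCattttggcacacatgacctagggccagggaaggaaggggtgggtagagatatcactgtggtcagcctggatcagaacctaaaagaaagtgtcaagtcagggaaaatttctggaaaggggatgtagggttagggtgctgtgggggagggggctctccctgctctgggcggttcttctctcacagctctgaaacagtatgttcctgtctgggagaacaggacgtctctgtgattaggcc
Ctss: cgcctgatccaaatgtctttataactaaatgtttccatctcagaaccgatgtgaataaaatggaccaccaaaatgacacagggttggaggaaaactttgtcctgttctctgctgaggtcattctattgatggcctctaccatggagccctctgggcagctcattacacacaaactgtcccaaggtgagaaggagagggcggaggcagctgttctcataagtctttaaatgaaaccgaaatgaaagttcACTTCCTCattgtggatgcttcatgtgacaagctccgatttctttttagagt

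Among 16 genes of reactive astrocytes 3 were called, Serpina3n, Gfap and Chil1, and the list had a median of 0.46. Gfap, the intermediate filament of astrocytes, read 8.30, 8.42, 9.34, 7.51 and 8.49, with young arrays at 5.79 to 7.32 with a median of 7.03. The severe mice were all above the young range, the male by a small margin. The rise of 1.51 (SE 0.32, adjusted p 0.00793) lost its call without severe replicate 3, the highest array (1.31, adjusted p 0.0657), with array weights (0.102) and with only the 2 groups fitted (0.095). Chil1, a chitinase-like protein that astrocytes secrete in inflammation, read 9.44, 9.90, 9.62, 8.92 and 9.86, against 7.71 to 8.38 with a median of 8.07, again with no overlap. It rose by 1.38 (SE 0.18, adjusted p 6.74e-06). The filament protein Vim (1.17, SE 0.40, adjusted p 0.309) and the oncostatin M receptor Osmr (0.78, SE 0.22, adjusted p 0.131) did not pass. Of 16 genes of resting astrocytes 0 rose and 1 fell. The water channel Aqp4 differed by 0.55 (SE 0.17, adjusted p 0.229).

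Outside these lists, S100a6, a calcium-binding protein, rose by 1.24 (SE 0.22) and was above every young array in all severe mice. Pcdhb9, from the clustered protocadherins through which neurons adhere, read 10.86, 11.07, 11.29, 10.78 and 11.12, against 9.51 to 10.28 with a median of 10.03. These arrays did not overlap, the male lay close to the females, and the rise was 1.08 (SE 0.13, adjusted p 6.47e-07). It was the only call among 20 clustered protocadherins, of which Pcdhb3 came next in p (0.52, SE 0.21, adjusted p 0.474). Further calls outside the lists, chosen here after their values were seen, were the protease inhibitor A2m (1.10, SE 0.16), the membrane-cytoskeleton linker Msn (0.96, SE 0.19), the haematopoietic actin regulator Nckap1l (0.75, SE 0.12) and the calcium-binding S100a1 (0.78, SE 0.14, but -0.56 with SE 0.33 on a dimmer probe set). Msn and Nckap1l lost their calls with only the 2 groups fitted (adjusted p 0.201 and 0.0905).

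**Figure D3:**
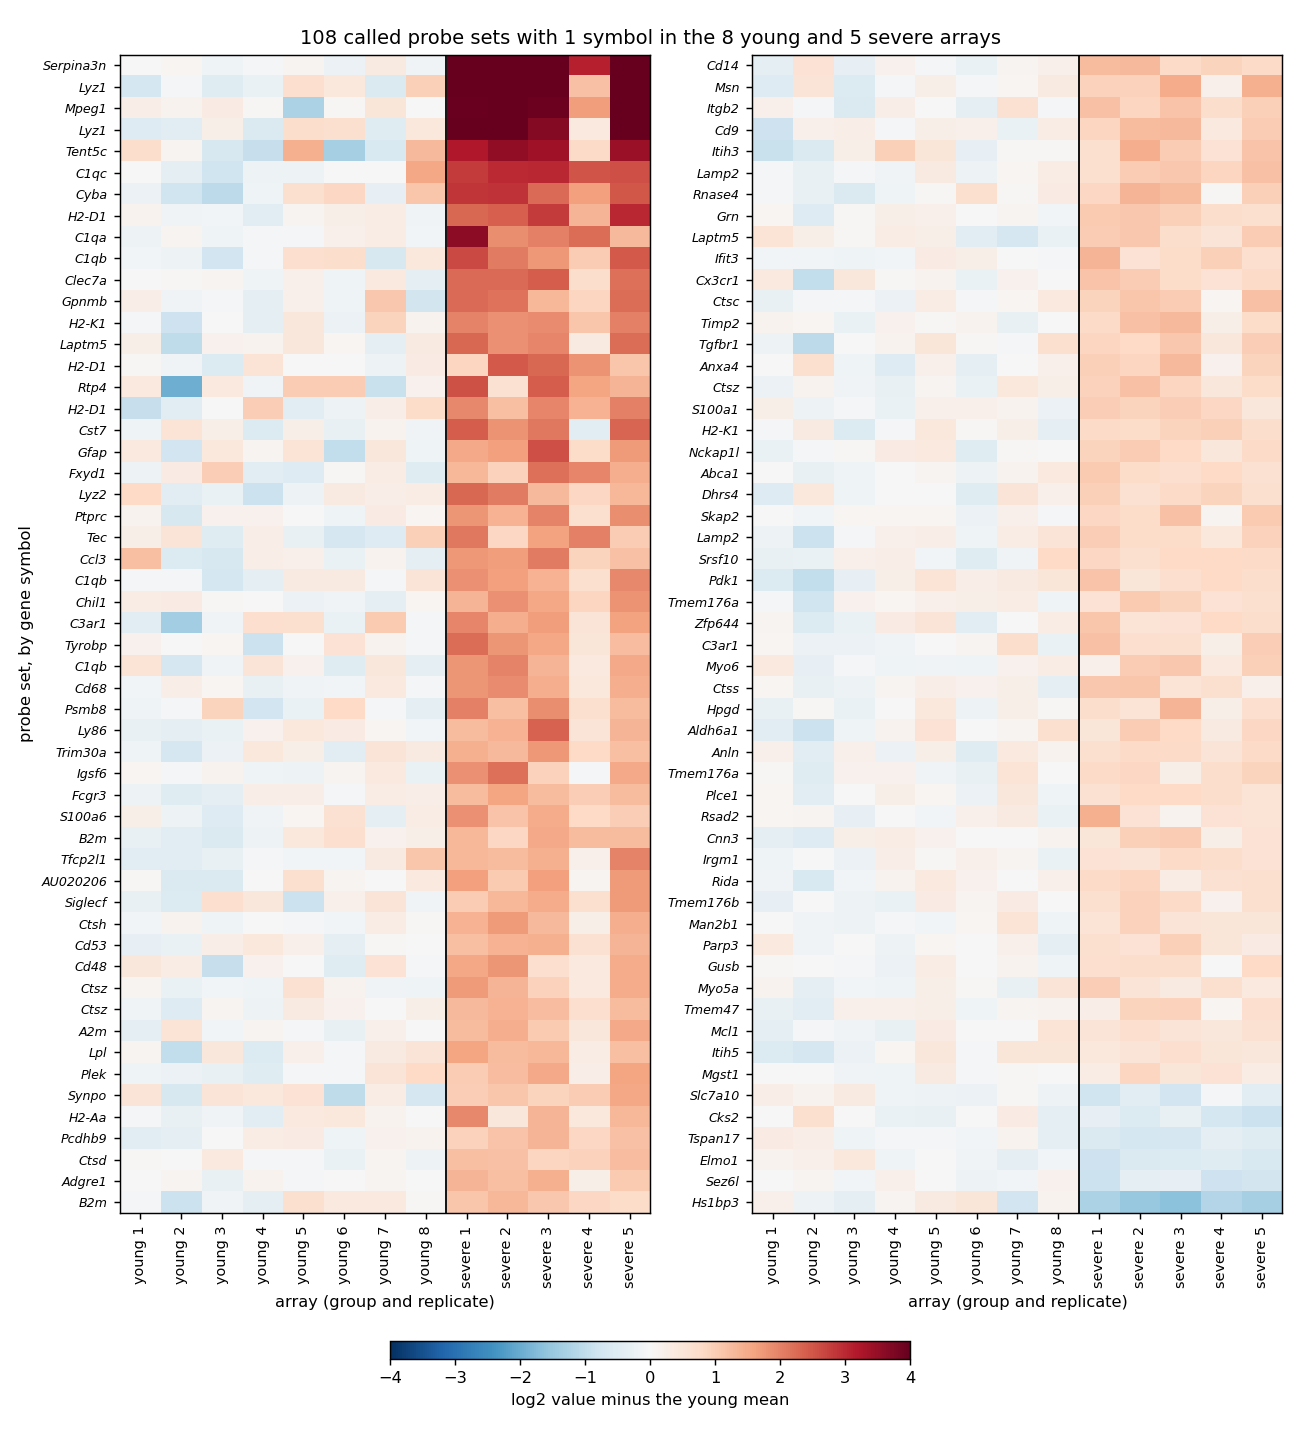
Rows are the 108 called probe sets with a single gene symbol, ordered by their mean difference in the severe arrays, and columns are the 8 young and 5 severe arrays; colour is the log2 value minus the young mean, and it saturates at 4 in either direction. The severe columns are red for nearly all rows, often palest in severe replicate 4, and the last 6 rows, from Slc7a10 to Hs1bp3, are blue.

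No list held more than 1 of the 6 lower genes. Elmo1, which acts in the engulfment of dying cells and in migration, read 9.62, 9.87, 9.91, 9.96 and 9.86, against 10.10 to 10.87 with a median of 10.41 in young mice, and all severe arrays were below. It fell by 0.64 (SE 0.13, adjusted p 0.00513), with 0.38 (SE 0.32) on a dimmer probe set. Slc7a10, a carrier of small neutral amino acids such as D-serine, read 9.14, 9.49, 9.17, 9.85 and 9.52, against 9.70 to 10.30 with a median of 9.87. The 4 females were below every young array and the male was inside the young range. The fall of 0.51 (SE 0.12, adjusted p 0.0216) lost its call without severe replicate 1, 2 or 3 or young replicate 1, 2 or 3 (adjusted p up to 0.145). Sez6l, a neuronal membrane protein, fell by 0.65 (SE 0.15), the tetraspanin Tspan17 by 0.57 (SE 0.13) and Cks2, a partner of cyclin-dependent kinases, by 0.61 (SE 0.15). Hs1bp3 read 5.26, 5.00, 4.89, 5.35 and 5.20, near the bottom of the scale, against 5.75 to 7.02 with a median of 6.64. Its groups did not overlap, and it fell by 1.36 (SE 0.32, adjusted p 0.0261), where a brighter probe set differed by 0.08 (SE 0.12). Each of these last 4 calls was lost without at least 1 mouse: Tspan17 without severe replicate 2 or 3 (adjusted p up to 0.062), Cks2 without severe replicate 2, 4 or 5 or young replicate 2, 6 or 7 (up to 0.178), Sez6l without severe replicate 1, 4 or 5 or young replicate 1, 2, 4 or 8 (up to 0.142), and Hs1bp3 without any 1 severe mouse or without young replicate 1 or 6 (up to 0.092). Fitting only the 2 groups ended the calls of Elmo1, Slc7a10, Tspan17, Cks2 and Sez6l (adjusted p 0.0893 to 0.339). Centring arrays on their median ended those of Elmo1, Slc7a10 and Sez6l (up to 0.147), and array weights those of Slc7a10 and Sez6l (up to 0.0722). Cks2 lost its call without the sex term (0.118) and with the 3′ to 5′ ratio as a covariate (0.0602). Sez6l lost it also with that covariate, quantile normalization or females only (up to 0.243), and Hs1bp3 with females only or a pseudocount of 64 (up to 0.128).

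No gene of the GABA system was called. The series title names receptors for GABA, the main inhibitory transmitter. Of 13 GABA-A receptor subunits, 4 genes of GABA synthesis, transport and breakdown and 11 of receptor trafficking 0 were called by limma, with list medians of -0.05, -0.34 and -0.20. At an unadjusted p under 0.05 these lists held 2, 1 and 2 genes. The trafficking genes, not named here, ran from -1.20 to 0.14, and the 2 of them under 0.05 were lower. The 1 measured GABA-B receptor gene differed by -0.08. Gabra2, a receptor subunit, read 4.72, 6.43, 6.64, 4.72 and 7.12, against 6.41 to 7.37 with a median of 6.69. Severe replicates 1 and 4 were far below the young range and the other 3 severe mice were within it, and the difference did not pass (-0.85, SE 0.30, adjusted p 0.333). The log2 of the RMA signals in the deposited GABA table gave a difference of -0.14 (SE 0.07). Whether those signals were already log2 was not settled, so its size cannot be compared with the -0.85. Slc32a1, which loads GABA into vesicles, differed by -0.61 (SE 0.22, adjusted p 0.353), the transaminase Abat by -0.41 (SE 0.25) and Gabrg1 by 0.41 (SE 0.17). Gabra6, a subunit known from cerebellar granule cells, differed by -0.86 (SE 0.70), with young replicate 2, the array with cerebellar signal, at 12.82; without that mouse the difference was -0.11.

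Further neuronal lists were also without a call by limma, with medians of -0.18 for 12 pan-neuronal genes, -0.12 for 21 genes of synaptic vesicles and release, -0.14 for 13 of glutamate receptors and transporters and -0.05 for 21 potassium and HCN channels. The counts of their genes at an unadjusted p under 0.05 were 2, 2, 0 and 1. The neurofilament Nefm differed by -0.41 (SE 0.16, adjusted p 0.435) and Nefl by -0.31 (SE 0.15, adjusted p 0.636). Fos, an early gene of neuronal activity, read 10.69, 10.62, 10.79, 10.33 and 10.75, against 11.06 to 12.19 with a median of 11.52 in young mice. All severe arrays were below the young range, and the difference of -0.95 (SE 0.30) did not pass (adjusted p 0.231). Of its list of 20 immediate early genes 0 were called, with a median of -0.14, and at an unadjusted p under 0.05 the list held 5 lower and 2 higher genes. Nr4a1 differed by -0.67 (SE 0.22, adjusted p 0.27), Jund by -0.44 (SE 0.17, adjusted p 0.412) and Atf3 by 0.89 (SE 0.34, adjusted p 0.416). The summed level of the list was 13.34 to 13.66 in severe and 13.81 to 14.26 in young mice, without overlap. None of 14 myelin and oligodendrocyte genes was called (median -0.06, Fa2h -0.47, SE 0.16), nor of 14 of brain endothelium (median -0.11, Flt1 -0.59, SE 0.24), 34 of oxidative phosphorylation (median -0.10) or 22 of cytosolic ribosomal proteins (median 0.05). In these 4 lists 1, 2, 0 and 2 genes had an unadjusted p under 0.05. Of the glucocorticoid-responsive genes the metallothionein Mt2 differed by 0.71 (SE 0.23, adjusted p 0.272), and of the senescence genes the cell cycle inhibitor Cdkn1a by 0.84 (SE 0.33, adjusted p 0.45).

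**Figure D4:**
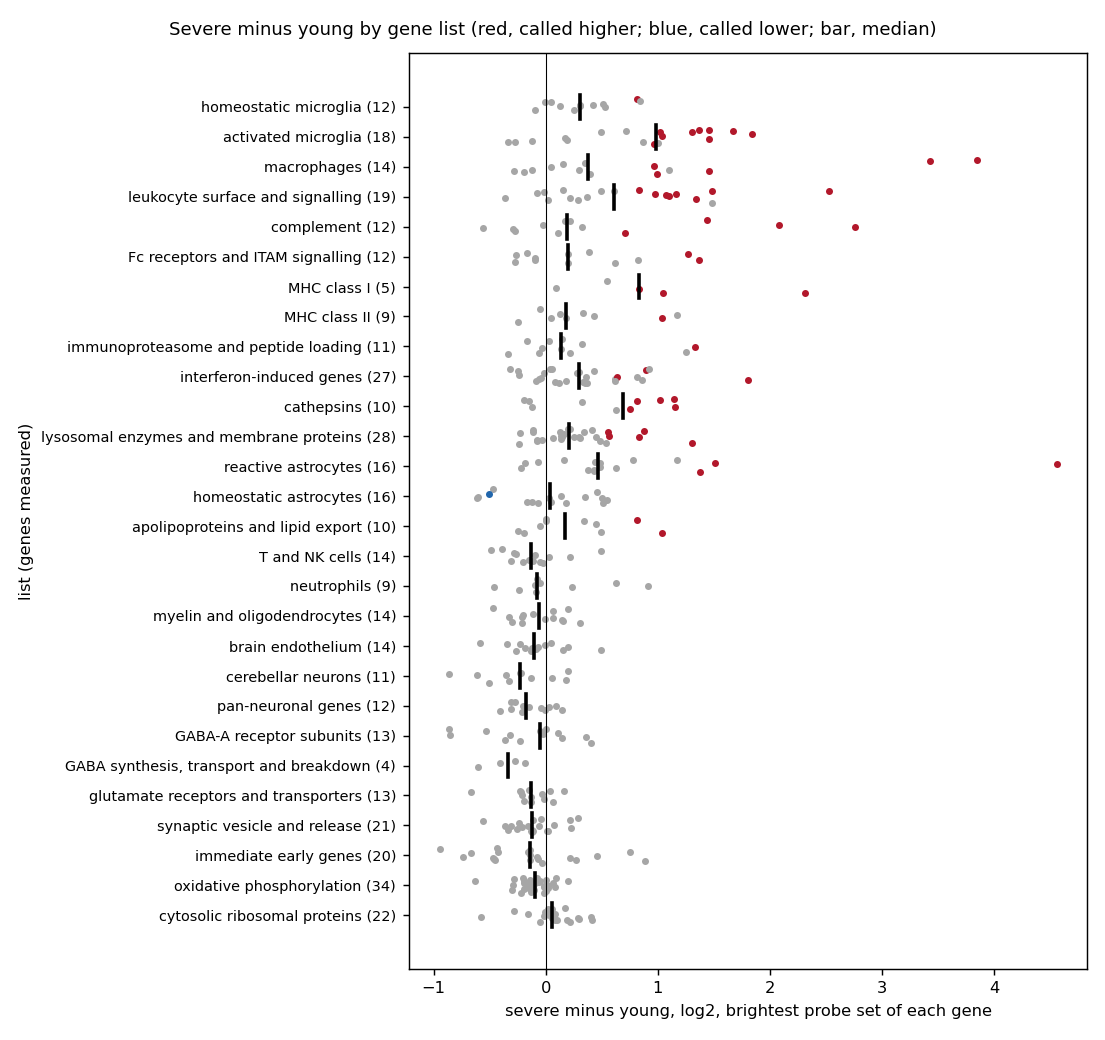
Each point is the brightest probe set of 1 gene of a list, at its severe minus young difference (log2), with genes called on that probe set in red (higher) or blue (lower), others in grey, and the list median as a bar; the number of genes measured stands after each list's name. The microglial, class I, cathepsin and astrocyte lists extend to the right, with medians of 0.98, 0.83, 0.69 and 0.46 for activated microglia, class I, cathepsins and reactive astrocytes. Medians of the neuronal and metabolic lists run from -0.34 (GABA synthesis, transport and breakdown) to 0.05 (cytosolic ribosomal proteins).

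Set against the 9 mice with mild presbycusis, the 5 severe mice gave 0 called probe sets of 22626 by limma (0%), and an unadjusted p under 0.05 was reached by 843, with 1131 given by chance. The leading genes had higher means in severe mice without passing. Clec7a averaged 8.94 ± 0.47 (SD, n = 9) in mild and 10.02 ± 0.71 (n = 5) in severe mice, a difference with sex in the fit of 0.93 (SE 0.18, limma adjusted p 0.0764). Serpina3n differed by 2.48 (SE 0.57), Mpeg1 by 1.38 (SE 0.30) and Ptprc by 0.80 (SE 0.18), with limma adjusted p of 0.315, 0.233 and 0.233. Without severe replicate 4 this comparison gave 11 calls, 10 of them higher. Between severe and mild mice the difference was 0.49 (SE 0.23) for H2-D1, -0.10 (SE 0.26) for Psmb8, 0.02 (SE 0.34) for Rtp4 and 0.06 (SE 0.12) for Pcdhb9. Gene groups were not tested against each other here.

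Against the 17 middle-aged mice with good hearing, 110 probe sets were called in severe mice (0.486%), 109 of them higher (0.482%) and 1 lower (0.00442%). That comparison shares its severe arrays with the one above, so the values stand side by side only. Mpeg1 was 2.57 (SE 0.27) above the middle-aged mean, Clec7a 1.70 (SE 0.16), C1qc 2.51 (SE 0.27) and Gfap 1.85 (SE 0.28), each called by limma. Serpina3n averaged 6.35 ± 1.30 (SD, n = 17) in middle-aged mice and 10.03 ± 0.94 (n = 5) in severe mice. Its middle-aged values ran from 5.26 to 9.00, and the highest, of a male, lay above the severe male at 8.61. Of the genes that were lower than in young mice, Elmo1 differed from middle-aged mice by -0.44 (SE 0.11, limma adjusted p 0.0753) and Slc7a10 by -0.23 (SE 0.10, adjusted p 0.787).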

How the data were processed

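Total RNA of the inferior colliculus was labelled as biotin cRNA and hybridised to Affymetrix MOE430A arrays, 1 per mouse, per the labels. The deposited series values are linear intensities, 1 per probe set, scaled by the authors with an algorithm not given in the sources used here. A deposited table of 33 GABA probe sets holds RMA signals, per the file headers, and their log2 was fitted as an alternative only. Columns of 249 further per-sample values repeat or derive from it and were not used.

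Of 22690 rows, 64 control probe sets were left out. Symbols came from GEO's platform annotation: 20380 probe sets had 1 symbol, 691 several and 1555 none. The value log2(intensity + 16) was fitted in limma 3.58.1 (R 4.3.3) with 4 group means and sex over all 39 arrays, eBayes with a trend, and Benjamini-Hochberg adjustment over 22626 probe sets. On data simulated at this size the fit recovered 16% of changes of 0.5, 86% of 1 and 100% of 1.5 and 2 (log2). The changes were placed only in the upper 60% of probe sets by mean, with independent normal noise of equal spread in all groups. In the data the spread can differ, as for Serpina3n (SD 0.94 in severe and 0.19 in young mice). The recovery of dim or unevenly spread genes was thus not tested.

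Members and gene lists were chosen with earlier results of these data known. Named were genes from the 20 largest rises and 10 largest falls among called probe sets in the upper 60% by mean, and every called list member. Up to 4 members of a list by smallest p, some of the GABA members, and other probe sets of these genes were also named. Bst2, Cd52, Itgax, Lgals3, Oasl2, Usp18 and Vim fall outside this rule and were named after their values were seen. List medians use each gene's brightest probe set. A list's summed level is the log2 of its summed intensity. Alternatives were normalization, pseudocount, filters, covariates, fits and single arrays left out.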

Additional observations from a re-analysis of the deposited data

Results flagged for a closer look

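Within-group outliers by Dixon's test were sought in 310 pairs of a group and a named probe set, and 31 were found; chance alone gives about 1 in 20. Severe replicate 4, the only severe male, gave 14 of them, each time as the lowest of its group: Lyz1 (7.78 and, on the other probe set, 5.17), Mpeg1 (8.79), Tent5c (6.95), Clec7a (8.76), H2-K1 (6.98), Laptm5 (8.46), Cst7 (4.7), Cd53 (8.4), Ctsz (8.37), Ctsh (8.3), Ctsc (9.28), Gusb (8.03) and Vim (8.00). Among the other severe mice, replicate 3 was the highest for Itih5 (10.63) and Csf1r (12.54), replicate 2 the highest for Man2b1 (9.7) and replicate 1 the lowest for Elmo1 (9.61).

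In the young group replicate 2, the array with cerebellar signal, was the lowest for Grn (11.13), Tmem176a (8.38), Tmem119 (7.6) and Cx3cl1 (8.66) and the highest for Gabra6 (12.82). Replicate 7 was the highest for C3ar1 (8.74) and Man2b1 (9.31). Replicate 5 was the lowest for Mpeg1 (5.88) and the highest for Mgst1 (10.52). Single values were C1qc highest in replicate 8 (7.13), Tyrobp lowest in replicate 4 (6.76), Oasl2 lowest in replicate 1 (4.83) and Gabra2 highest in replicate 3 (7.37).

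The severe minus young difference was itself compared between the sexes with an interaction term in limma. The term rests on 1 severe male, so that sex, this mouse and its array cannot be told apart. The sizes below are female minus male, for probe sets chosen after their values were seen. Negative terms were found too: Cfap410 had -2.30, where the severe male read 7.08 and the severe females averaged 4.95, with young means of 5.20 and 5.04. A positive term need not be a larger rise in females: Srxn1 had 1.91, where the severe male read 6.54 against 8.74 in young males. Among probe sets called between severe and young mice, the term was 4.43 and 4.34 for Lyz1 on its 2 called probe sets, 1.96 for AU020206 and 2.21 for Laptm5.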

How the results depend on the processing

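The 120 calls between severe and young mice became 247 with females only and 43 with only the 2 groups in the fit, both of which use fewer arrays. The cause of these changes was not tested. With plain probe sets only 68 were called, where 70 of the 120 were on plain probe sets. The other settings (quantile normalization, median centring, pseudocounts of 1 and 64, no sex term, array weights, no trend, robust fit, the 3′ to 5′ ratio as a covariate) gave 104 to 132, of which quantile normalization called 13 lower against 6. Without any 1 severe mouse the count was 92 to 133, and without any 1 young mouse 102 to 126. The 0 calls between severe and mild mice became 1 with quantile normalization and without the sex term, 2 with median centring, array weights or plain probe sets only, 5 with a pseudocount of 64, 6 with females only, and 0 to 11 without 1 severe mouse. The 110 calls between severe and middle-aged mice became 68 with plain probe sets only and 73 to 130 without 1 severe mouse. Of the 108 called probe sets with 1 symbol, 35 were called in every alternative run that held them, 46 were lost in 1 to 5 and 27 in more, and 0 changed direction. The run with plain probe sets only held 66 of the 108, and the run without the dimmest probe sets held 86. No paired analysis was possible because mouse numbers are unique and replicate numbers follow accession order. With 5 severe arrays, changes of 0.5 on the log2 scale were mostly below what the fit could call.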

Other observations

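Among females alone, 4 severe against 4 young, 247 probe sets were called by limma, 101 of them also called in all mice. The fit also held the 10 middle-aged and 4 mild females, which enter its SE and adjusted p. The genes below, chosen after their values were seen, were among those called in females and not in all mice. The astrocytic water channel Aqp4 rose by 1.00 (SE 0.15, adjusted p 0.000322), with severe females at 11.99 to 12.43 and young females at 10.92 to 11.48. Aldoc, a glycolytic enzyme of astrocytes, rose by 1.05 (SE 0.15, adjusted p 0.000272) on 1 probe set, from 9.71 to 9.96 in young to 10.78 to 11.06 in severe females. Further microglial, macrophage and MHC class II genes rose: Gpr34 by 1.08 (SE 0.24), Lgals3 by 1.19 (SE 0.28), Ms4a6d by 1.66 (SE 0.37), Cd52 by 1.94 (SE 0.44) and H2-Ab1 by 1.53 (SE 0.37). The metallothionein Mt2 rose by 1.09 (SE 0.25), from 11.46 to 11.90 in young to 12.10 to 13.17 in severe females.

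Of the 38 probe sets called lower in females, 3 were members of a list, where 749 of the 12393 named genes were listed. They were Slc7a10 and Cks2, which were also called in all mice, and Kcnc1. Kcnc1, the channel Kv3.1 that lets auditory neurons fire at high rates, fell by 1.19 (SE 0.27, adjusted p 0.0291). Severe females lay at 8.15 to 9.32 and young females at 9.45 to 10.40, without overlap. How many of all probe sets are without overlap among females was not counted. The severe male read 9.81, and over all mice the difference was -0.56 (adjusted p 0.671). Lynx1, a brake on nicotinic acetylcholine receptors, fell by 0.73 (SE 0.14, adjusted p 0.00556), and the RNA-binding protein Msi2 by 1.18 (SE 0.20, adjusted p 0.00197). The GABA-A receptor subunit Gabrg1 was higher by 0.76 (SE 0.18, adjusted p 0.0409). The male also reads apart in several of the microglial genes, and whether sex plays a part was not tested beyond the interaction term.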
